A study of Rattus norvegicus with 96 samples.

Results

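The genes described here are 7 genes of corticosteroid signaling in the rat brain: the mineralocorticoid receptor gene Nr3c2, the receptor co-chaperone genes Fkbp5 and Fkbp4, the enzyme gene Hsd11b1, and Sgk1, Tsc22d3 and Nfkbia, which glucocorticoids are known to induce. They were chosen by name, 7 of the 14218 genes that the array's annotation names, and each is read from the probe set that names this gene alone and has the highest mean signal. Affymetrix arrays measured RNA from tissue that was microdissected out of 8 brain regions in 3 groups of rats, with 4 arrays for each region and group and 96 arrays in all. Dependent rats had self-administered 10% alcohol for 4 weeks and then inhaled intermittent alcohol vapor for 4 weeks, non-dependent rats had self-administered alcohol without vapor, and alcohol naive rats were age-matched and had done neither. The dependent and non-dependent rats were tested for drinking again after the vapor period, and all tissue was taken 3 weeks after vapor ended, in protracted abstinence, so the groups are a model of past rather than current exposure. The regions were the medial prefrontal cortex (mPFC), the core and shell of the nucleus accumbens (NAcC, NAcSh), the basolateral and central amygdala (BLA, CeA), the dorsolateral and ventral bed nucleus of the stria terminalis (dlBNST, vBNST) and the ventral tegmental area (VTA).

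Corticosterone, the main glucocorticoid of rats, acts in the brain through a pair of nuclear receptors, the glucocorticoid receptor encoded by Nr3c1 and the mineralocorticoid receptor encoded by Nr3c2. The mineralocorticoid receptor binds the hormone with the higher affinity. Before hormone binding, the receptors sit in complexes with the heat shock protein HSP90 in which FKBP5 lowers and FKBP4 favors hormone binding and transport to the nucleus. Within cells, the enzyme encoded by Hsd11b1 regenerates active corticosterone from its inert keto form. The kinase SGK1, the leucine zipper protein GILZ encoded by Tsc22d3, the NF-kappa-B inhibitor encoded by Nfkbia and FKBP5 itself are widely used readouts of glucocorticoid receptor activity.

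Values are log2 signals after GCRMA normalization, and levels of different genes are not comparable because probes differ. On 4 arrays the rat signal stood apart (best correlation with any other array 0.38 to 0.96, against at least 0.99 for the remaining 92), and these were left out, which leaves 3 arrays for non-dependent CeA, BLA and VTA and for dependent vBNST. Regional markers followed the labels in part, with the mean of 3 dopamine neuron genes at 9.76 in the VTA. The NAcSh arrays were less uniform. Cortical glutamatergic genes averaged up to 6.32 on naive and 5.10 on dependent NAcSh arrays, against a mean of 2.94 in the NAcC. Medium spiny neuron genes averaged as low as 7.35 in the NAcSh, against 9.43 or more in the NAcC. The mPFC arrays differed from the others in a control probe set of Gapdh, at 12.77 to 13.59 on the 12 mPFC arrays and 9.43 to 11.71 on the other 80, and the amount of RNA amplified also depended on region. Differences between regions and differences between such array properties cannot be told apart. In tissue, fewer cells of a type and less RNA per cell cannot be told apart either. A gene was tested in a region where its mean was above 4, just over the array medians of 3.81 to 3.94. Nr3c2, Fkbp5, Sgk1, Tsc22d3 and Hsd11b1 passed in all 8 regions, Fkbp4 only in the mPFC and vBNST, and Nfkbia in none.

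**Figure D1:**
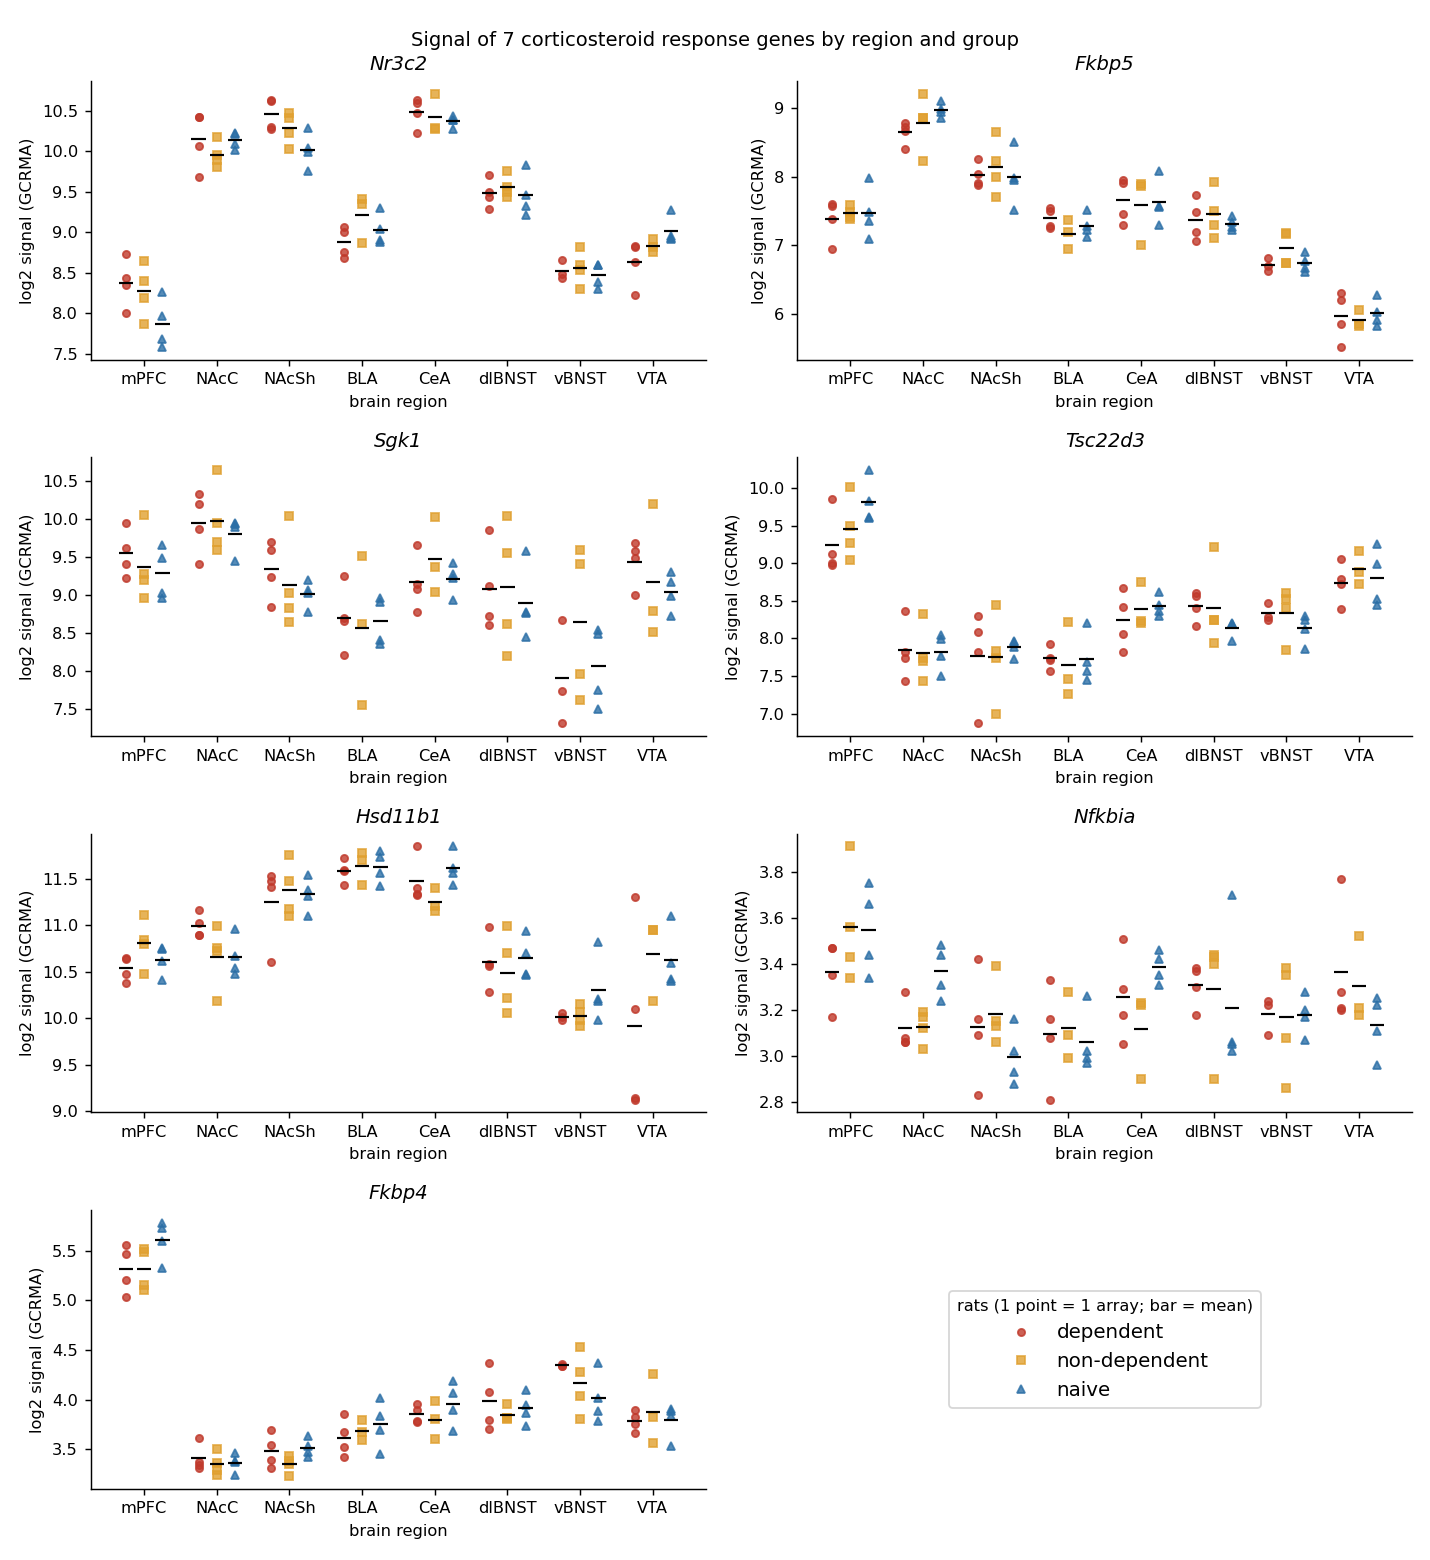
Log2 signal (y axis) of the 7 genes in 8 brain regions (x axis); each point is 1 array of a dependent (circle), non-dependent (square) or naive rat (triangle), and the bar is the mean of the cell. Regions separate more widely than groups: Fkbp5 runs between 5.96 in the VTA and 8.80 in the NAcC, whereas its group differences within regions lie between -0.33 and 0.22.

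Regions separated these genes more widely than alcohol history did, with differences of up to 2.84 between regions and of -0.78 to 0.57 between groups within a region. Over the 28 pairs of regions, the 5 genes that passed everywhere differed at an adjusted p under 0.05 from limma in 106 of 140 tests (75.7%), against 66.2% of the tests of all genes. With Fkbp4, which entered through its high mPFC signal, the count was 128 of 168. Between groups within regions, 0 of 126 tests of the 6 testable genes passed an adjusted p under 0.05, where 0.0101% of all gene tests did. At an unadjusted p under 0.05, 5 of these 126 tests passed, and 8.79% of the tests of all genes did. The 95% confidence intervals of the 5 genes' 120 differences extended between 0.26 and 1.04 to either side of the estimate (median 0.43), so smaller changes within a region could not be resolved with these arrays.

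Nr3c2, the mineralocorticoid receptor gene (chr19:47619853-47964089, build GRCr8), was highest in the CeA and the accumbens and lowest in the cortex. It averaged 10.43 ± 0.16 in the CeA (SD, n = 11 arrays), 10.25 ± 0.26 in the NAcSh (n = 12) and 10.08 ± 0.23 in the NAcC (n = 12). Lower levels were 9.50 ± 0.19 in the dlBNST (n = 12), 9.04 ± 0.24 in the BLA (n = 11), 8.83 ± 0.26 in the VTA (n = 11), 8.52 ± 0.16 in the vBNST (n = 11) and 8.18 ± 0.36 in the mPFC (n = 12). Within this order the CeA and NAcSh did not differ beyond their spread (0.18, adjusted p = 0.0943), nor did the NAcSh and NAcC (0.17, adjusted p = 0.162), and every lower step passed the test, the smallest of them between the BLA and VTA (0.21, adjusted p = 0.0428). Nr3c2 differed in 26 of 28 region pairs. The extended amygdala thus held both a high and a low level, with the CeA 1.23 above and the vBNST 0.95 below the mean of the other 7 regions.

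Nr3c2 gave 3 of the 5 differences between groups that passed without adjustment, all of them between dependent and naive rats. In the NAcSh its signals were 10.30, 10.27, 10.63 and 10.62 in dependent rats, 10.03, 10.41, 10.47 and 10.22 in non-dependent rats, and 10.29, 9.75, 9.99 and 10.04 in naive rats. Of the dependent arrays, 3 of 4 lay above all naive arrays, and the remaining one fell just under the highest naive array. The difference was 0.44 ± 0.15 (SE; 95% interval 0.12 to 0.76; adjusted limma p = 0.323, exact permutation p = 0.0571). The mean of 4 extended amygdala neuron genes was 5.20 to 5.55 in the dependent and 5.60 to 6.04 in the naive NAcSh. Of these, 4 of 4 were lower (Crh -1.20, Nts -0.29, Prkcd -0.22, Sst -0.01). Cortical glutamatergic genes averaged 2.93 to 5.10 on dependent and 2.87 to 6.32 on naive NAcSh arrays. Medium spiny neuron genes averaged 8.59 to 9.55 on dependent and 7.35 to 9.28 on naive arrays. The part of these markers in the Nr3c2 difference was not tested. In the mPFC the receptor gene's signals were 8.35, 8.73, 8.00 and 8.43 in dependent rats, 7.87, 8.19, 8.64 and 8.40 in non-dependent rats, and 7.58, 7.96, 8.26 and 7.68 in naive rats. Here 3 of 4 dependent arrays were above every naive array, and the difference was 0.51 ± 0.20 (adjusted limma p = 0.240, exact permutation p = 0.0571), in a comparison where 17.1% of all genes passed without adjustment.

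In the VTA the receptor gene ran the other way. Its signals were 8.83, 8.22, 8.63 and 8.82 in dependent rats and 9.27, 8.92, 8.95 and 8.93 in naive rats, and the groups did not overlap, as was true of 3.72% of the genes tested there. Non-dependent arrays, at 8.92, 8.82 and 8.76, lay from the upper part of the dependent range up to the lowest naive array. Of 10 lists of cell type and region markers, 0 separated dependent from naive rats, which does not show equal composition. Naive array 1, with the highest Nr3c2 signal of the VTA, had its lowest mean of 3 dopamine neuron genes (8.71, against 9.23 to 10.44 on the other arrays). The part of this in the difference was not tested. The difference of dependent minus naive was -0.39 ± 0.15 (unadjusted limma p = 0.0205, adjusted p = 0.547; exact permutation p = 0.0286, two-sided, the smallest that 4 against 4 arrays allow). With single arrays left out, this VTA difference ran from -0.46 to -0.26. A test of whether the group differences of Nr3c2 vary with region gave an adjusted p = 0.175 from limma, and 2.85% of all genes passed that test. Without the dependent arrays numbered 3 in all regions, the adjusted p of this test was 0.0446 for Nr3c2 and 0.00791 for Hsd11b1. Of 12 runs that each left out a replicate number of a group, only this run gave any call among these genes. Its share over all genes is not given.

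Hsd11b1, the gene of the enzyme that regenerates corticosterone (chr13:107277526-107327462), had its highest signals in the amygdala. Its means were 11.62 ± 0.14 in the BLA (SD, n = 11), 11.45 ± 0.23 in the CeA (n = 11) and 11.32 ± 0.30 in the NAcSh (n = 12), and these neighbors did not differ beyond their spread (adjusted p = 0.318 and 0.444). A step of 0.55 (adjusted p = 0.000903) separated the shell from the NAcC at 10.77 ± 0.27, and no neighbors below it differed, down to 10.41 ± 0.73 in the VTA and 10.11 ± 0.25 in the vBNST. Hsd11b1 thus differed between shell and core of the accumbens, a step that did not pass the test for Nr3c2.

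In the CeA, Hsd11b1 had signals of 11.40, 11.15 and 11.21 in non-dependent rats and 11.85, 11.62, 11.56 and 11.43 in naive rats. These groups did not overlap, as was true of 7.78% of the genes in that comparison, and differed by -0.36 ± 0.14 (unadjusted limma p = 0.0271, adjusted p = 0.718; exact permutation p = 0.0571). Dependent arrays, at 11.33, 11.34, 11.85 and 11.40, reached into both ranges, and 2 of the 3 non-dependent arrays lay below all of them. The mean of 5 oligodendrocyte genes was also lower in the non-dependent CeA (9.35 to 9.61, against 9.69 to 9.87 in naive rats, with 5 of 5 genes lower), that of 4 medium spiny neuron genes was higher (5.68 to 6.49 against 5.22 to 5.53, 4 of 4 higher), and their part in the result was not tested.

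In the NAcC, Hsd11b1 signals were 10.89, 10.89, 11.16 and 11.02 in dependent rats, 10.72, 10.99, 10.75 and 10.18 in non-dependent rats, and 10.96, 10.47, 10.67 and 10.54 in naive rats. The dependent arrays were mostly the higher ones but overlapped both other groups, with a difference of 0.33 ± 0.17 from non-dependent rats (adjusted p = 0.820), which was 0.17 without non-dependent array 4. The widest spread of the enzyme gene was in the VTA, at 9.14, 9.12, 11.31 and 10.10 in dependent rats, against 10.95, 10.95 and 10.18 in non-dependent rats and 11.10, 10.40, 10.59 and 10.42 in naive rats. A pair of dependent arrays lay more than 1 unit below every array of the other groups while the dependent array numbered 3 was the highest of the region. The difference from non-dependent rats was -0.78 ± 0.46 (adjusted p = 0.436). It was -1.24 ± 0.31 without that array (adjusted p = 0.0697) and -0.52 and -0.51 without dependent array 1 or 2, and with arrays weighted by quality it was -1.29 ± 0.30 and passed (adjusted p = 0.0226). The mean of 6 astrocyte markers on that array, at 9.08, was the lowest of the VTA (9.32 to 9.75 on its other arrays). Of 10 marker lists, 1 separated these groups: the mean of 2 blood genes was 4.87 to 5.52 in dependent and 5.63 to 5.95 in non-dependent rats, with 2 of 2 lower. The part of these markers in the values of Hsd11b1 was not tested.

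Fkbp5 (chr20:6458931-6577227), the co-chaperone that lowers receptor affinity and is itself induced by the receptor, was highest in the NAcC at 8.80 ± 0.28 (SD, n = 12), followed by the NAcSh at 8.05 ± 0.32 (n = 12) and the CeA at 7.63 ± 0.34 (n = 11). The step from the CeA to the mPFC at 7.44 ± 0.26 (n = 12) did not pass (0.19, adjusted limma p = 0.123). Nor did the mPFC, dlBNST (7.38 ± 0.25, n = 12) and BLA (7.28 ± 0.18, n = 11) differ as neighbors. The vBNST (6.81 ± 0.20, n = 11) and VTA (5.96 ± 0.23, n = 11) were lower at each step. Core exceeded shell by 0.75 (adjusted p = 1.18e-07), the opposite order to Hsd11b1. A dimmer Fkbp5 probe set, averaging 4.22, also read higher in the core (4.49 ± 0.26, n = 12) than in the shell (4.04 ± 0.19, n = 12) but was highest in the CeA (4.61 ± 0.32, n = 11).

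Group differences of Fkbp5 lay between -0.33 and 0.22 within regions. In the NAcC its signals were 8.79, 8.66, 8.40 and 8.73 in dependent rats and 8.86, 8.98, 8.94 and 9.11 in naive rats, without overlap, which 4.12% of genes also showed. Non-dependent arrays, at 8.23, 9.21, 8.85 and 8.86, covered a range wider than both. Dependent minus naive was -0.33 ± 0.17 (adjusted p = 0.606; exact permutation p = 0.0286), and the dimmer probe set gave -0.32. In the vBNST the signals were 6.63, 6.81 and 6.70 in dependent rats, 7.16, 6.74, 7.18 and 6.75 in non-dependent rats, and 6.67, 6.62, 6.77 and 6.91 in naive rats. A pair of non-dependent arrays stood above the rest, and dependent minus non-dependent was -0.24 ± 0.14 (adjusted p = 0.993). It was -0.01 with the left-out dependent array included, and the dimmer probe set gave -0.07.

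Fkbp4 (chr4:163389464-163397918), the co-chaperone that favors receptor transport, was above background mainly in the cortex, at 5.41 ± 0.25 in the mPFC (SD, n = 12). It stood at 4.17 ± 0.26 in the vBNST (n = 11), and at 3.37 to 3.91 in the other 6 regions, where values near the floor of the array carry little information. In the mPFC its signals were 5.47, 5.20, 5.56 and 5.03 in dependent rats, 5.10, 5.49, 5.15 and 5.52 in non-dependent rats, and 5.78, 5.60, 5.32 and 5.73 in naive rats. Both drinking groups were mostly below naive rats, with overlap, and the dependent minus naive difference was -0.29 ± 0.16 (adjusted p = 0.362). In the vBNST, dependent rats had 4.34, 4.36 and 4.34, non-dependent rats 4.04, 3.80, 4.53 and 4.28, and naive rats 3.78, 4.02, 3.89 and 4.37. The dependent arrays were above 3 of the 4 naive arrays, and the difference was 0.33 ± 0.17 (adjusted p = 0.398). With a mean of 4.17 and single arrays down to 3.78, the vBNST signal also lay close to the floor, so this difference carries little information. On these vBNST arrays the mean of 4 choroid plexus and ependyma genes was 4.12 to 4.67 in dependent and 3.48 to 3.98 in naive rats, with 2 of 4 genes higher. That of 4 medium spiny neuron genes was 4.13 to 4.48 in dependent and 3.65 to 4.03 in naive rats, with 4 of 4 higher, and the part of these genes in the Fkbp4 difference was not tested. Nfkbia (chr6:78593844-78597307) averaged 3.23 over all arrays, with region means of 3.09 to 3.49, and no difference is read from it.

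Sgk1 (chr1:24799391-24916886) and Tsc22d3 (chrX:109006410-109066389) are, with Fkbp5, the induced genes among the 7 that were above the filter in all 8 regions. Of 9 promoter windows that RefSeq gives for 5 of the 7 genes (250 bases before to 50 after a start, build GRCr8), 0 held AGAACA or its complement TGTTCT, an arm of the palindrome that both corticosteroid receptors bind, and 20.7% of 33469 windows of that length held it. Facing arms with a spacer of 3 bases were in 0.0149% of the windows and in 0 of these 9. The 9 windows include several starts of Sgk1 and of Tsc22d3, and sequence outside them was not searched. These counts therefore do not show that the genes lack receptor sites. The letters TATAAA on the gene's strand, searched after the values were seen, were in 3 of the 9 windows and in 8.8% of all. Those windows belong to Sgk1 and Tsc22d3 alone, and each of these genes also had a window without the letters. Any link of the letters to the signals was not tested. A window of each gene is shown because their signals varied together from array to array, and each has TATAAA (in capitals) close before its start, 33 bases in Sgk1 (chr1:24804782-24805081, minus strand) and 44 in Tsc22d3 (chrX:109009985-109010284, minus strand), 5′ to 3′.
Sgk1: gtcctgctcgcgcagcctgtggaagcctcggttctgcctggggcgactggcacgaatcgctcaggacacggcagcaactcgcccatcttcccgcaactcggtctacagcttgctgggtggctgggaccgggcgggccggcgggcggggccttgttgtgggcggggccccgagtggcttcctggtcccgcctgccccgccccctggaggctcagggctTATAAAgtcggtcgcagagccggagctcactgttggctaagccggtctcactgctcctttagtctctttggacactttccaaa
Tsc22d3: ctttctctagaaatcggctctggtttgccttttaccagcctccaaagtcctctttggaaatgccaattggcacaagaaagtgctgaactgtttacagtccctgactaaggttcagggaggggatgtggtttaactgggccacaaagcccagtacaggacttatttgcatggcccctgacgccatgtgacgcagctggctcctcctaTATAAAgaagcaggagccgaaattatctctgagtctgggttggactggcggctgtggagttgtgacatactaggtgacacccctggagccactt

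Across regions these genes differed in their pattern. Sgk1 was highest in the NAcC at 9.91 ± 0.36 (SD, n = 12), above the mPFC at 9.40 ± 0.36 (adjusted p = 0.0214), and lowest in the vBNST at 8.20 ± 0.77 (n = 11). None of its lower neighbors in the order mPFC, CeA, VTA, NAcSh, dlBNST, BLA, vBNST differed beyond their spread, and 16 of its 28 region pairs passed. Tsc22d3 was highest in the mPFC at 9.50 ± 0.43 (n = 12), above the VTA at 8.82 ± 0.29 (n = 11; adjusted p = 2.08e-05) and the CeA, dlBNST and vBNST at 8.27 to 8.36. It was lowest in the NAcC, NAcSh and BLA, at 7.71 to 7.82, which did not differ as neighbors. The NAcC thus held the highest Sgk1 and Fkbp5 signals and some of the lowest of Tsc22d3.

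For Tsc22d3 the clearest group difference was in the mPFC, at 9.00, 8.98, 9.85 and 9.12 in dependent rats, 9.49, 9.27, 9.04 and 10.02 in non-dependent rats, and 9.61, 9.60, 9.83 and 10.24 in naive rats. Here 3 of 4 dependent arrays lay below all naive arrays, and the dependent array numbered 3 lay among them. Dependent minus naive was -0.59 ± 0.24 (95% interval -1.11 to -0.06; adjusted limma p = 0.251, exact permutation p = 0.114), and non-dependent minus naive was -0.36 ± 0.24. On the same arrays the mean of 6 astrocyte genes was 9.91 to 10.06 in dependent and 10.17 to 10.49 in naive rats, with 5 of 6 genes lower. That of 5 oligodendrocyte genes was 9.04 to 9.79 against 9.57 to 10.05, with 5 of 5 lower. Their part in the values of Tsc22d3, Nr3c2 and Fkbp4 in the mPFC was not tested.

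For Sgk1 the widest group difference was in the vBNST, with signals of 8.67, 7.73 and 7.31 in dependent rats, 7.62, 9.40, 9.59 and 7.96 in non-dependent rats, and 8.49, 7.75, 8.54 and 7.50 in naive rats. The non-dependent arrays split into a high and a low pair, the groups overlapped, and the difference of -0.74 ± 0.48 between dependent and non-dependent rats had an interval of -1.78 to 0.30 (adjusted p = 0.993). With single arrays left out it ran from -1.12 (without dependent array 2) to -0.42 (without non-dependent array 3). In the CeA the signals were 9.08, 9.66, 9.14 and 8.78 in dependent rats, 9.04, 9.37 and 10.02 in non-dependent rats, and 9.22, 9.27, 8.93 and 9.42 in naive rats. Only 1 non-dependent array lay above the dependent range, and the difference was -0.31 ± 0.23 (adjusted p = 0.999). It was -0.04 without that array (number 4) and -0.53 without non-dependent array 1.

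**Figure D2:**
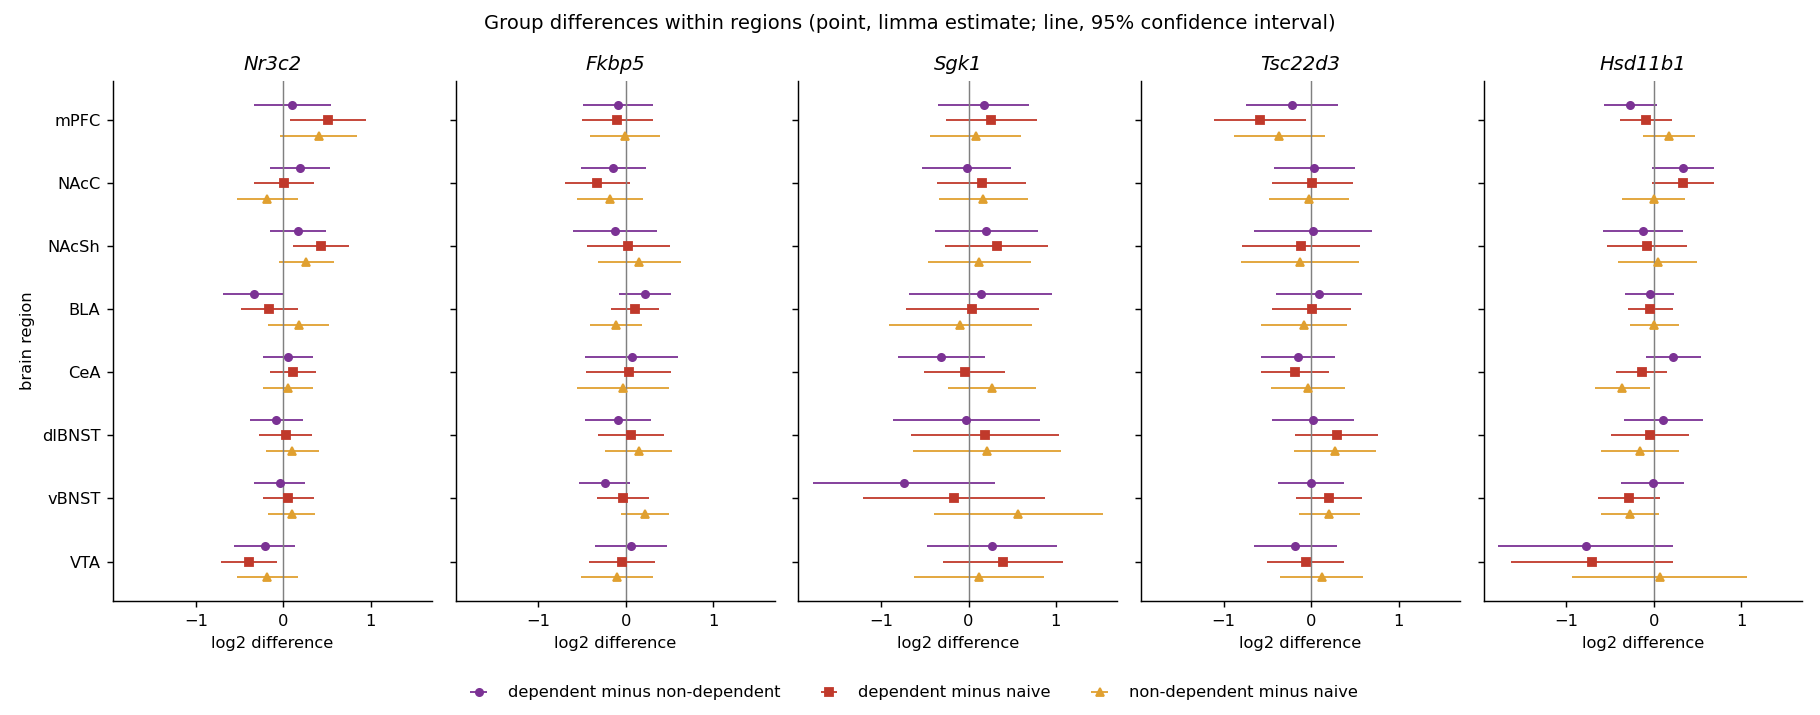
Log2 difference between groups (x axis) in each brain region (y axis) for the 5 genes tested in every region; points are limma estimates for dependent minus non-dependent (circle), dependent minus naive (square) and non-dependent minus naive (triangle), and lines are 95% confidence intervals. Few intervals leave 0, among them Nr3c2 in the NAcSh (0.12 to 0.76), and the widest ones belong to Sgk1 in the vBNST and Hsd11b1 in the VTA.

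No shift shared by all regions passed the test. Of the 6 testable genes, 0 passed an adjusted p under 0.05 in dependent minus non-dependent (0.698% of all genes passed), in dependent minus naive (12%) or in non-dependent minus naive (2.42%). At an unadjusted p under 0.05, also 0 of the 6 passed, against 13.3%, 27.4% and 17% of all genes. The highest estimate was Sgk1 in non-dependent minus naive rats, 0.18 ± 0.13 (95% interval -0.08 to 0.44), higher in 7 of 8 regions, and the lowest was Hsd11b1 in dependent minus naive rats, -0.13 ± 0.08 (-0.30 to 0.03), lower in 7 of 8 regions. With single replicate numbers left out, the Sgk1 estimate ran from 0.08 (without non-dependent 2) to 0.32 (without non-dependent 1), and that of Hsd11b1 from -0.20 (without dependent 3) to -0.07 (without naive 1). The estimates for Nr3c2 were 0.07 ± 0.06 for dependent minus naive and 0.09 ± 0.06 for non-dependent minus naive rats. For Fkbp5 and Tsc22d3 all 3 estimates lay between -0.05 and 0.01. For Nr3c2 in dependent minus naive rats the interval reached up to 0.19. It describes an average over regions whose single differences ran from -0.39 to 0.51. Arrays of several regions came from the same rats, but the labels do not link them, so this fit treats them as independent. Its intervals are therefore no firm bounds. For a group difference that varies with region, 0 of the 6 genes passed.

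Of the genes around the receptor, few passed. Nr3c1, the glucocorticoid receptor gene, had differences of -0.26 to 0.25 within regions (lowest adjusted p = 0.375) and of 0.03 ± 0.04 over all regions in dependent minus naive rats. Of 5 measured chaperone genes of the receptor complex, 2 passed over all regions in that comparison, in opposite directions, where 12% of all genes passed. Hsp90ab1, which encodes an HSP90, averaged 11.22 in dependent and 11.08 in naive rats (0.14 ± 0.05, adjusted p = 0.0361), and Stip1, the adaptor that links HSP70 to HSP90, averaged 6.26 and 6.50 (-0.24 ± 0.08, adjusted p = 0.0477). Both also varied with region (adjusted p = 0.0404 for Hsp90ab1 and 0.00756 for Stip1). The Stip1 call was lost under median scaling (adjusted p = 0.0897), under quantile normalization (0.102) and with no filter on dim genes (0.0631), and the Hsp90ab1 difference was 0.02 when probe sets were averaged.

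Of the 2 testable coregulators, Ncor1, a corepressor, passed at 10.14 in dependent and 9.95 in naive rats (0.19 ± 0.06, adjusted p = 0.0280), though not when its probe sets were averaged (0.05, adjusted p = 0.349). Of 13 testable genes that glucocorticoids induce besides the 7, 0 passed in any of the 3 comparisons over all regions. All-gene shares there were 0.698% (dependent minus non-dependent), 12% (dependent minus naive) and 2.42% (non-dependent minus naive). The median difference of the 13 genes was 0.00 in dependent minus naive rats. The nearest was Ddit4, an inhibitor of growth signaling, at 4.45 in dependent and 4.91 in non-dependent rats (-0.46 ± 0.13, adjusted p = 0.0770). Of 4 testable immediate early genes, Egr1 passed at 11.34 in dependent and 11.01 in naive rats (0.33 ± 0.09, adjusted p = 0.0124). In dependent minus naive, the comparison of the Ncor1 and Egr1 calls, 12% of all genes passed. Enzyme genes Hsd11b2, H6pd and Akr1c14 were below the filter in all regions. Without single groups' replicate numbers, Egr1 lost its call 2 times (dependent 4 and naive 4, adjusted p up to 0.0972) and Ncor1 4 times (dependent 1 and 2, naive 1 and 4, up to 0.189). Hsp90ab1 lost it without dependent 1, 3 or 4 or naive 1, 2 or 3 (up to 0.127), and Stip1 without dependent 1 or 2, non-dependent 1 or 4 or any naive number (up to 0.21). None of the 4 calls held with all 96 arrays. Within regions, 0 of the 120 tests of chaperones, 48 of coregulators, 249 of induced and 63 of immediate early genes passed. The share over all gene tests within regions was 0.0101%, so these counts of 0 say little about the lists.

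Although no group difference passed in these genes, single arrays spread widely, and Sgk1 and Tsc22d3 varied together. Each array was set against the mean of its own region and group, which removes the mean differences between regions and groups but not differences in spread. Over 92 arrays the deviations of Sgk1 and Tsc22d3 correlated with r = 0.59 (rho = 0.53, and r = 0.57 without the 2 arrays farthest from the median of Sgk1), the highest of the 21 pairs of the 7 genes. The next pairs were Tsc22d3 with the dim Nfkbia at 0.40, Sgk1 with Nfkbia at 0.30 and Tsc22d3 with Fkbp5 at 0.28. Sgk1 with Fkbp5 stood at 0.17 over all arrays, at -0.09 in dependent, 0.46 in non-dependent and -0.21 in naive arrays. The deviations of Nr3c2 and Hsd11b1 did not rise with those of Sgk1 (-0.07 and -0.22) or of Tsc22d3 (-0.22 and -0.14). These are descriptions without a test, since the pair was picked after its values were seen, arrays of several regions share rats, and all genes of an array share its preparation.

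The shared variation of Sgk1 and Tsc22d3 was present in most regions. Within regions of 11 or 12 arrays, r was 0.84 in the BLA (rho = 0.79), 0.84 in the CeA (0.77), 0.73 in the NAcC (0.59) and 0.72 in the NAcSh (0.66). It was 0.62 in the dlBNST (0.56), 0.60 in the vBNST (0.68) and 0.50 in the VTA (0.64), and only 0.28 in the mPFC (-0.03), where rho gave no relation. Leaving out the 2 arrays farthest from the median of Sgk1 gave 0.67, 0.63, 0.74, 0.46, 0.45, 0.46, 0.40 and 0.06 in the same order. By group, r was 0.42 in the 31 dependent arrays, 0.79 in the 29 non-dependent arrays and 0.26 in the 32 naive arrays.

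**Figure D3:**
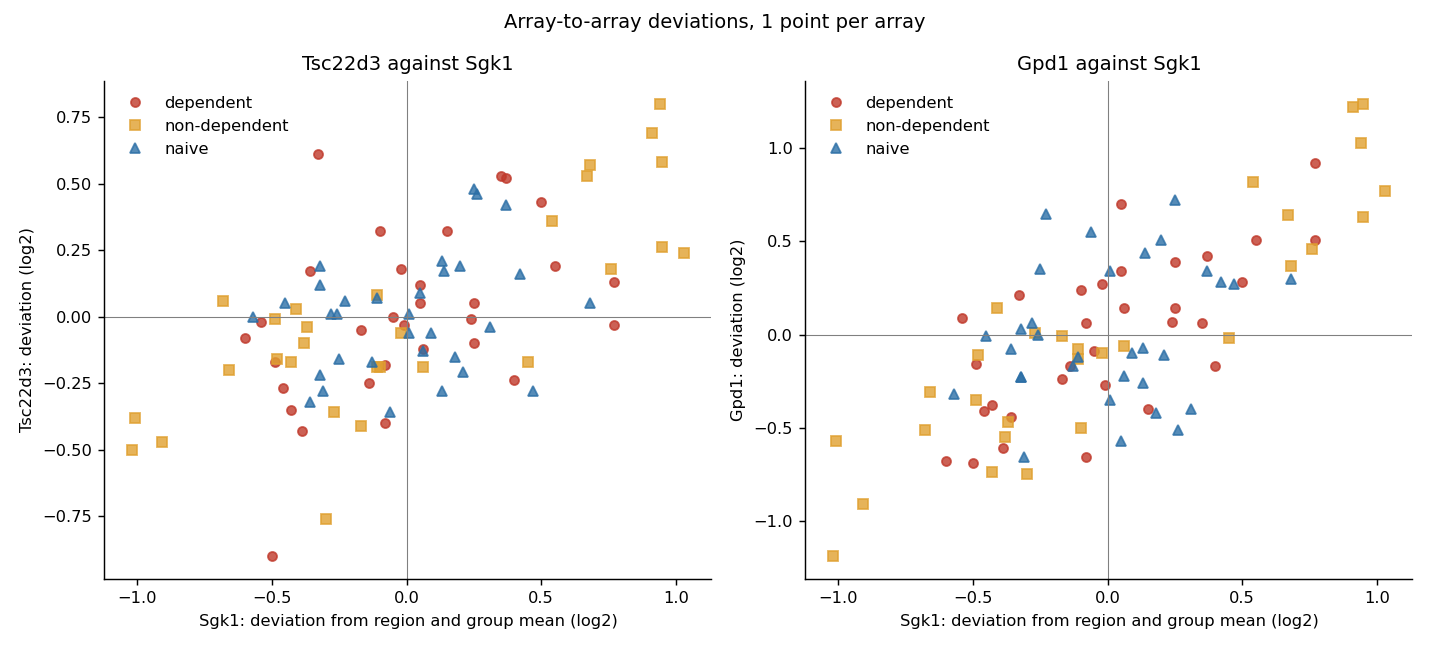
Deviation of each of 92 arrays from the mean of its region and group (log2 units) for Tsc22d3 (left, y axis) and Gpd1 (right, y axis) against Sgk1 (x axis), with dependent arrays as circles, non-dependent as squares and naive as triangles. Points rise together (r = 0.59 for Tsc22d3 and 0.73 for Gpd1), with r for Tsc22d3 at 0.79 in non-dependent arrays.

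Among 8763 other genes, Gpd1, a glycerol phosphate dehydrogenase that glucocorticoids induce in rat brain glia, had the highest correlation with the deviations of Sgk1 (r = 0.73, rho = 0.65). Ccn2, a secreted matrix protein (0.61), Klf15 (0.60) and Klf2 (0.60), Krüppel-like factors of which Klf15 is a glucocorticoid target, Tsc22d3 (0.59), the adhesion receptor gene Adgrg6 (0.59), Slc2a1, the glucose transporter of endothelium and glia (0.58), and Pdk4, a kinase that holds back pyruvate oxidation (0.57), followed. For 99% of the genes r was under 0.37. Tsc22d3 had Cables1 (0.64), Gpd1 (0.63), Ndufb5 (0.60) and Sgk1 (0.59) nearest. Gpd1 was not on any list and is named because of its rank. Its correlation with Sgk1 was positive in 8 of 8 regions, between 0.33 in the mPFC and 0.96 in the vBNST, but without the 2 farthest arrays it was 0.21 in the mPFC, 0.21 in the NAcSh and 0.13 in the VTA. By group it was 0.69 in dependent, 0.9 in non-dependent and 0.23 in naive arrays.

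Of the lists, the mean of 15 glucocorticoid-induced genes correlated with the deviations of Sgk1 at 0.61 and of Tsc22d3 at 0.50, with Pdk4 (0.57), Ddit4 (0.46) and Plekhf1 (0.45) highest for Sgk1. Among its members Cdkn1a stood lowest for Sgk1 at -0.21. The mean of 5 immediate early genes stood at 0.33 and 0.42, that of 5 endothelial and mural genes at 0.21 and 0.10, of 4 choroid plexus and ependyma genes at 0.20 and 0.22, of 5 oligodendrocyte genes at 0.06 and 0.10, and of 6 astrocyte genes at -0.02 and 0.06. Array measures (hybridization controls, Gapdh and Actb control probe sets and the array median) stood between -0.12 and 0.14. Dissection time and handling of the rats were not given in the sources used here.

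The spread of Sgk1 between arrays was widest in non-dependent rats. Pooled over regions, its SD was 0.44 in dependent rats (31 arrays), 0.75 in non-dependent rats (29 arrays) and 0.34 in naive rats (32 arrays), while the median gene had 0.24, 0.22 and 0.22. Non-dependent rats had a higher SD of Sgk1 than naive rats in 8 of 8 regions, and dependent rats had one in 7 of 8. Arrays of several regions came from the same rats, so the regions are not independent repeats. In some regions non-dependent arrays reached both ends. In the BLA they held the lowest and the highest signal of the region (7.55 and 9.51), in the VTA likewise (8.51 and 10.19), and in the dlBNST likewise (8.19 and 10.04). In the NAcC, CeA and vBNST they held the highest signal (10.64, 10.02 and 9.59). There the lowest signal was on a dependent array (9.41, 8.78 and 7.31). The ratio of non-dependent to naive SD was 2.20, above that of 99.7% of the genes. Tsc22d3 followed, with 0.36 in dependent, 0.44 in non-dependent and 0.25 in naive rats, a ratio of 1.78. For Nr3c2 the SDs were 0.24, 0.22 and 0.20, close to those of the median gene. This pattern was found after the values were seen and was not tested.

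**Figure D4:**
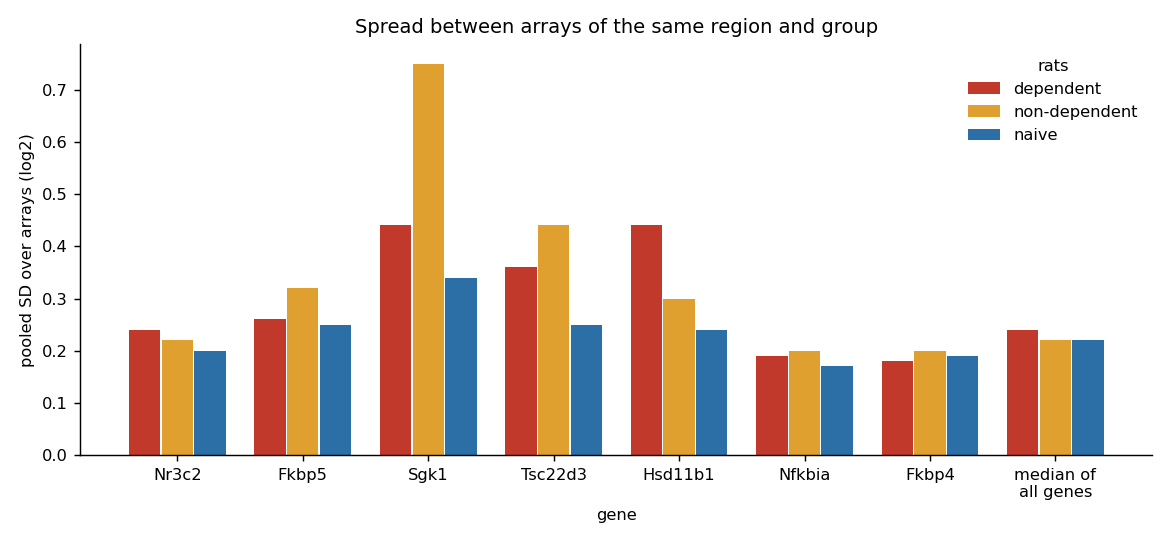
Standard deviation between arrays of the same region and group, pooled over 8 regions (y axis, log2 units), for the 7 genes and for the median of all genes (x axis), in dependent, non-dependent and naive rats (bars, left to right). Sgk1 stands out at 0.75 in non-dependent rats, against 0.44 in dependent and 0.34 in naive rats.

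Genes whose pattern over the 24 means of region and group was most like that of each gene, among 7713 that were above 4 in every region, are given as description, since these points share regions and arrays. For Nr3c2 they were Smim27 (r = 0.946), Id4 (0.927) and Ndufaf4 (0.914), and for Fkbp5 Kcna4 (0.976), Angel2 (0.965) and Ctdspl (0.958). For Sgk1 they were Ppp1r16b (0.847), Slc6a6 (0.838) and Kdm3b (0.828), and for Tsc22d3 Mpc2 (0.967), Snapc2 (0.956) and Tubb4a (0.955). For Hsd11b1 they were Fcho2 (0.819), Ttyh1 (0.814) and Tp53bp2 (0.807). Fkbp4, with its signal in the cortex, was nearest to Stub1 (0.988), Dcaf8 (0.976) and Tm9sf4 (0.973), and the dim Nfkbia to F11r (0.853), Tmem143 (0.820) and Nop53 (0.817).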

How the data were processed

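Per the labels and the study's methods, RNA of microdissected tissue was amplified, biotin labeled and hybridized to Affymetrix rat expression arrays. The deposited table holds log2 signals that the authors made with GCRMA 2.36.0 under R 3.03 per the labels, and no further scaling was applied. Of 31099 probe sets, 20832 name 1 gene (14218 genes) and were used. Genes with a mean above 4 in a region were tested there (limma 3.58.1, R 4.3.3), each region having its own fit of 3 group comparisons. Over all regions, genes above 4 in at least 1 region were tested in 1 fit of the 24 region and group means. P-values were adjusted by Benjamini-Hochberg over all genes of a comparison, at 0.05. Groups and replicate numbers come from the labels, which do not say that a number identifies a rat, and p-values measure the spread between these arrays. The number of arrays limits the precision. The members and the gene lists were chosen with earlier results of these data known. By rule the text names the 7 genes, Nr3c1, pathway genes past the threshold, the genes most like each member, and up to 2 within-region differences per gene with the smallest p (3 for Nr3c2, all under 0.05 unadjusted); Hsd11b1 in the VTA, Ddit4 and the genes that vary with Sgk1 or Tsc22d3 were chosen after their values were seen. Of 82 listed genes, 74 matched the annotation. Deviations, exact permutation tests and figures used Python 3.11.15, numpy 2.4.6, scipy 1.17.1, pandas 2.3.3 and matplotlib 3.10.9. The fits were tested on simulated data. Alternatives were all 96 arrays, array weights (statmod 1.5.0), the mean of a gene's probe sets, scaling to the median, quantile normalization, other filters, a robust trend, only the 2 groups compared, a replicate block, exact tests and leaving out each array.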

Additional observations from a re-analysis of the deposited data

Results flagged for a closer look

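Of 140 sets of 4 arrays of a region and group over the 7 genes, 11 held an array far from the other 3 by Dixon's criterion, which chance meets in about 1 of 20 sets. Tsc22d3 stood at 9.85 on dependent mPFC array 3 (8.98 to 9.12 on the others) and at 7.97 on naive dlBNST array 1 (8.19 to 8.21). Sgk1 stood at 9.44 on naive NAcC array 3 (9.89 to 9.94), and Nr3c2 at 9.27 on naive VTA array 1 (8.92 to 8.95). Hsd11b1 stood at 10.6 on dependent NAcSh array 3 (11.41 to 11.53) and at 11.85 on dependent CeA array 3 (11.33 to 11.40). The dim genes were Nfkbia, at 3.28 on dependent NAcC array 1 (3.06 to 3.08), 3.77 on dependent VTA array 4 (3.20 to 3.28), 2.9 on non-dependent dlBNST array 4 (3.40 to 3.44) and 3.7 on naive dlBNST array 4 (3.02 to 3.06), and Fkbp4, at 3.96 on non-dependent dlBNST array 3 (3.80 to 3.81).

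The 4 arrays that were left out strayed from the naive arrays of their region in both directions, and each held some signals above all of these. The dependent vBNST array 1 read 7.67 for Fkbp5 (6.62 to 6.91 in naive rats), 8.72 for Tsc22d3 (7.86 to 8.30) and 5.11 for Fkbp4 (3.78 to 4.37). The non-dependent BLA array 3 read 9.27 for Sgk1 (8.35 to 8.96), 9.03 for Tsc22d3 (7.45 to 8.21) and 3.3 for Nfkbia (2.97 to 3.26). The non-dependent CeA array 2 read 4.8 for Nfkbia (3.31 to 3.46). The non-dependent VTA array 2 read 11.72 for Hsd11b1 (10.40 to 11.10) and 3.55 for Nfkbia (2.96 to 3.25). Other signals lay below all naive arrays. Nr3c2 read 7.52 on the vBNST array (8.30 to 8.60 in naive rats), 8.15 on the BLA array (8.88 to 9.30), 5.78 on the CeA array (10.27 to 10.43) and 8.08 on the VTA array (8.92 to 9.27). Hsd11b1 read 9.08 on the vBNST array (9.98 to 10.82), 9.29 on the BLA array (11.42 to 11.80) and 6.84 on the CeA array (11.43 to 11.85). The CeA array also read 3.56 for Fkbp5 (7.30 to 8.08), 5.24 for Sgk1 (8.93 to 9.42) and 6.10 for Tsc22d3 (8.30 to 8.62). On these arrays the mean of 18 hybridization control probe sets was 10.85 to 14.31, against 7.44 to 10.42 on the 92 arrays used, and its part in these values was not tested.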

How the results depend on the processing

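Within regions, the count of 0 calls between groups became 1 with array weights (Hsd11b1 in the VTA, dependent minus non-dependent). It stayed at 0 to 0 when single arrays were left out. An unadjusted exact permutation p under 0.05 was met 3 times (p = 0.0286 each). These were Nr3c2 in the VTA and Fkbp5 in the NAcC, dependent minus naive, and Nfkbia in the NAcC, non-dependent minus naive. Nfkbia was below the filter, so these 3 do not come from the same set of tests as the 0 calls. The count of group differences that vary with region became 1 with array weights (Hsd11b1, adjusted p = 0.000878) and ran from 0 to 2 when replicates were left out, with 2 without dependent replicate 3. Between regions, the 128 calls ran from 104 to 137 over the alternatives and from 126 to 132 with replicates left out, and over all regions the counts stayed at 0 in every alternative run. With all 96 arrays, 3 differences changed sign: Sgk1 in the CeA, dependent minus non-dependent (0.75), Nr3c2 over all regions, non-dependent minus naive (-0.11), and Fkbp5 over all regions, dependent minus non-dependent (0.11). Hsd11b1 in the CeA, non-dependent minus naive, was -1.46 there, and Fkbp5 in the vBNST, dependent minus non-dependent, was -0.01. Tsc22d3 over all regions, dependent minus naive, was 0.01 without dependent replicate 4 and lay between -0.11 and 0.01 with replicates left out. The cause of these changes was not tested. Same-numbered arrays of different groups within a region did not deviate together (88 pairs, r of -0.375 to 0.465, median 0.004), so numbers were not taken as pairs. Arrays of the same group and number in different regions did not either (309 pairs, r of -0.35 to 0.445, median -0.004). With a block on the replicate number the count within regions was 0. With a block on group and number in the fit of all regions, the counts were 128 between regions, 0 over all regions and 0 for differences that vary with region. The block correlation in that fit was -0.003, so it could hardly differ from the main fit and is no check for shared rats. The correlation of Sgk1 and Tsc22d3 was 0.72 with all 96 arrays and 0.37 without non-dependent arrays, and 0.54 to 0.68 in the other alternatives, which were chosen after seeing the data. The SD ratio of Sgk1 ran from 1.87 to 3.05. Nfkbia, and Fkbp4 outside the mPFC and vBNST, lay too near background for a difference to be read. Fkbp4 in the vBNST was only just above the filter of 4.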
